A study of Mus musculus with 1183 samples.

Results

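Cathepsins are the proteases of the lysosome, and cystatin C, encoded by Cst3, is a secreted inhibitor of those with a catalytic cysteine. Messenger RNA of 9 cathepsin genes and of Cst3 was followed across the immune cell types of the newborn mouse lung. The 10 genes were taken by symbol from a table of 18072 genes, and each symbol matched 1 row. They are the cysteine cathepsins Ctsb, Ctsl, Ctss, Ctsk, Ctsh, Ctsc and Ctsz, the aspartic protease Ctsd, the serine carboxypeptidase Ctsa, and Cst3. The study asked how the different immune cells of the lung take part in its response to excess oxygen after birth. It read the RNA of single sorted cells, 1 cell per well, from the distal lung on postnatal day 7, with libraries made by Tn5 transposase. There were 598 cells from 1 female mouse and 585 from 1 male mouse, 1183 in all, and both mice had been kept in hyperoxia. No mouse kept in room air was analysed here, so no value below is an effect of oxygen. The labels used here name no strain, transgene or other treatment. With 1 animal of each sex, sex and animal cannot be told apart.

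Cathepsins break down proteins that reach the lysosome by endocytosis, phagocytosis or autophagy. Most are made as inactive precursors that mature in the acid of that compartment. In antigen-presenting cells cathepsin S removes the last part of the invariant chain from class II molecules, and in granule-bearing cells cathepsin C activates serine proteases. Cystatin C binds cysteine cathepsins tightly and does not inhibit the aspartic cathepsin D.

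The promoters of the genes are shown first because lysosomal genes are known as targets of TFEB, TFE3 and MITF, which bind an E-box, and myeloid genes as targets of PU.1. RefSeq windows on GRCm38.p6, from 250 bases before to 50 after the start, were found for 8 of the 10 genes. Ctsb and Ctsh had none and were not searched. The 8 genes had 9 windows, as Ctsa had a further start. The E-box core CACGTG lay in 3 of these windows, of Ctsa, Ctsd and Ctsl. It lay in 7.15% of 32851 promoters of that length. The extended form TCACGTGA, which holds the core, lay in Ctsa and Ctsd and in 0.974% of all promoters. The PU.1-type letters GAGGAAGT, or ACTTCCTC on the other strand, lay in Ctsc and Ctss and in 3.2% of all promoters. Both strands were searched, and a match is a description of the letters only. Below, capitals mark the match and each stretch reads 5′ to 3′ on the strand of the gene.
Ctsa, chr2:164833733-164833772, plus strand, match 13 bases before the start: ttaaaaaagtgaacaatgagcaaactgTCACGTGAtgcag
Ctsd, chr7:142387892-142387953, minus strand, match 99 bases before the start: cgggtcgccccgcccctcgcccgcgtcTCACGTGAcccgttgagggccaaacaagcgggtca
Ctsl, chr13:64370724-64370770, minus strand: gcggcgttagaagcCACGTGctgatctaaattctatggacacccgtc
Ctsc, chr7:88277907-88277968, plus strand: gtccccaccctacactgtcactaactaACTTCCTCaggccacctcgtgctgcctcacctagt

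The labels divided the cells into 16 subtypes, of which 15 held at least 5 cells in each animal. They were Mac II to Mac V, DC I to DC III, neutrophil, mast cell, mast cell II, basophil, and B, T, IL and NK cell. Mac I held 1 cell. A cell had 16753 to 7560179 reads, with a median of 1100966, and the 30 summed libraries held 6024429 to 235566546. The libraries' markers were highest in their own label for B cells (4 of 4 genes), neutrophils (5 of 5), Mac IV (5 of 5) and DC I (5 of 5), but for Mac II and mast cell II in 0 of 4 each. Mac III had the highest Ear1, Car4, Marco and Krt79, 4 of 6 alveolar macrophage markers measured, and Mac V all 6 of its monocyte markers. The labels do not say how subtypes were assigned; an assignment made from the same cells' RNA would not be independent of the levels below. Female plate 1 was sequenced in run DC28 and the other 3 CD45 plates in run DC35. A further 10 cells were not titled CD45, and the summed libraries include them. These were 3 female cells on each of plates 1 and 2 titled mesench, in run DC34, and 4 male cells titled CD31, in run DC30.

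Levels are given as counts per 1000000 reads (CPM) of the summed reads of a subtype, female first and male second. In the 4 macrophage and monocyte subtypes the 10 genes together took 1.26 to 2.35% of all reads. In Mac III they took 1.86% and 1.85%, and in Mac IV 2.35% and 1.92%. In neutrophils, which are also phagocytes, they took 0.285% and 0.291%, and in IL cells 0.1% and 0.105%. DC I had the highest share, 3.61% and 5.13%, but the 9 cathepsins were only 0.318% and 0.203% of its reads and Cst3 was the rest. In cells thinned to 100000 reads each, a median of 9 of the 10 genes had a read in a Mac II, Mac III or Mac IV cell of either animal. The median was 8 in Mac V, 6 in DC I and 3 in neutrophils and basophils. At least 8 of the genes were found in 98.9% and 99.5% of Mac III cells and in 59.1% of Mac V cells of each animal.

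**Figure D1:**
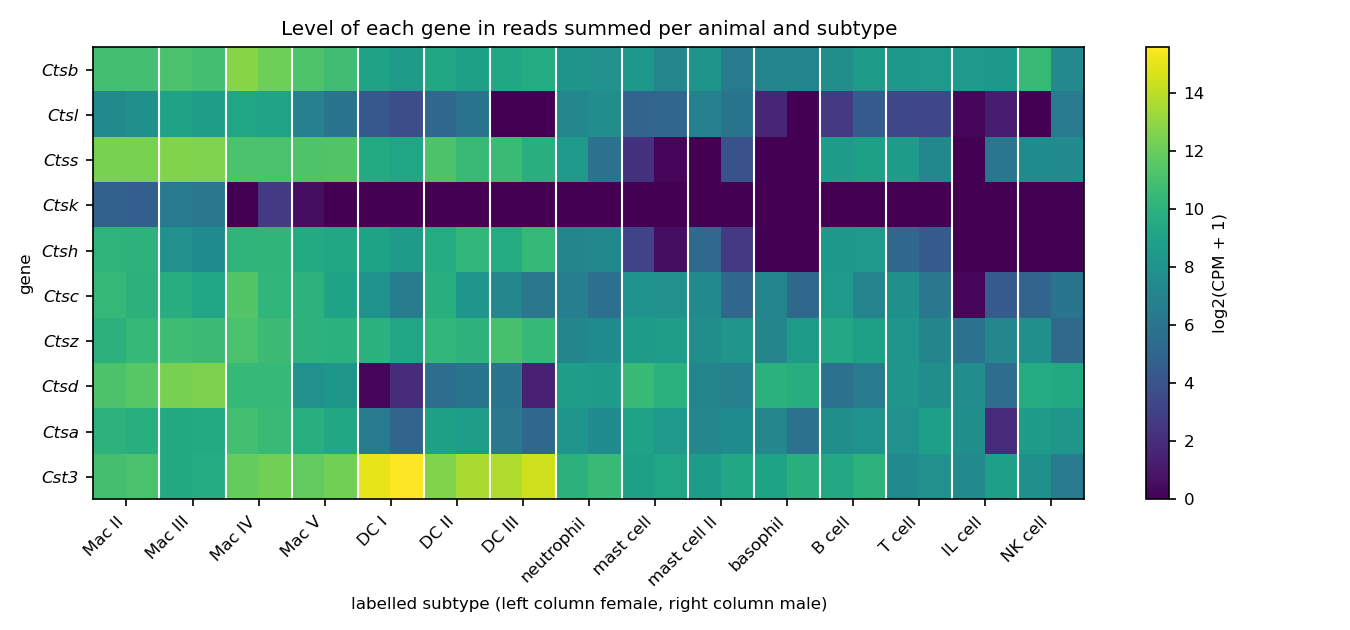
Level of the 10 genes as log2(CPM + 1), by colour, in reads summed per animal and labelled subtype (left column female, right column male of each pair). Cst3 is highest in DC I (32897 and 49298 CPM), Ctsb in Mac IV (7358 and 4531 CPM), Ctss and Ctsd in Mac III, and Ctsk is near 0 outside Mac III and Mac II.

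Among the endopeptidases, Ctsb encodes cathepsin B, an abundant lysosomal protease that also trims dipeptides from protein ends. It stood at 7358 and 4531 CPM in Mac IV, 2557 and 1806 in Mac V, 2228 and 1964 in Mac III, and 1911 and 1940 in Mac II. Mac IV did not overlap the other 3 and its mean was 2.72 times the next, while Mac V overlapped both Mac III and Mac II. The median Mac IV cell had 6360 and 3996 CPM, and single cells reached 17751 and 14081. Ctsb was found in all 15 subtypes. Its lowest mean was in basophils, at 132.4 and 127.7 CPM, and its lowest library the male mast cell II, at 83.7. In NK cells the female level of 1426 CPM was 8.75 times the male one, and 81.6% of its reads came from 1 of 5 cells.

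Ctsl encodes cathepsin L, an endopeptidase of lysosomes. Its level was 562 and 553 CPM in Mac IV, 511 and 410 in Mac III, 166.5 and 223.4 in Mac II and 108.3 and 62.2 in Mac V. Mac IV and Mac III did not overlap, by a narrow margin, and both stood above Mac II and Mac V. After thinning, a read of Ctsl was found in 96.1% and 97.1% of Mac III cells, 88.9% and 87.3% of Mac IV cells and 33.3% and 31.8% of Mac V cells. In neutrophils the level of 149.9 and 196.96 CPM came from a minority: 27.3% and 30.8% of cells had a read, and 53% of the female reads came from 1 cell. DC III had 0 reads in both animals, from 11 cells each, which allows up to 27.3% of cells by a floor of 3 counts and 28.5% by the exact 95% limit. The male NK level of 89.3 CPM was from 1 cell. B and T cells had 4.98 to 22.4 CPM and mast cells 33.1 and 33.9.

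Ctss encodes cathepsin S, which works at near-neutral pH as well as in acid. It was 6286 and 6214 CPM in Mac III and 5709 and 5510 in Mac II, and these subtypes did not overlap. Mac V had 2511 and 2670 CPM, Mac IV 2295 and 2178, and DC II 2384 and 1430. Mac III and Mac II thus stood more than 2-fold above every other subtype in each animal. The middle of the Mac III cells was narrow: the quartiles were 3901 and 7875 CPM in the female and 3985 and 7742 in the male, and every Mac III cell had at least 1328 CPM. In neutrophils Ctss was 327.9 and 58.3 CPM and was found in 12.7% and 7.69% of thinned cells (exact 95% limits 5.27 to 24.5% and 2.88 to 16%). Basophils held 1 read in the female and 0 in the male.

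Ctsk encodes cathepsin K, the collagen-degrading protease best known from osteoclasts. It was 80 and 74 CPM in Mac III, and the other 14 subtypes lay at 27.9 or less. The 4 plates gave 72.9 and 86.3 CPM in the female and 67.6 and 79.2 in the male. Not all Mac III cells held it: 94 thinned female cells (51.9%, exact 95% limits 44.4 to 59.4%) and 90 male cells (43.3%, 36.4 to 50.3%) had a read. At full depth these shares were 59.3% and 57.2%, and the highest cell gave 5.34% and 8.41% of the Mac III reads. The Mac II level, 27.9 and 24.5 CPM, was of another kind, with 92.3% of the female reads in 1 cell and all of the male reads in 1 cell. Ctsk had 0 reads in both animals in 8 subtypes. On chromosome 3 its start lies 27576 bases from that of Ctss, which was high in every Mac II cell, 2031 CPM or more.

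**Figure D2:**
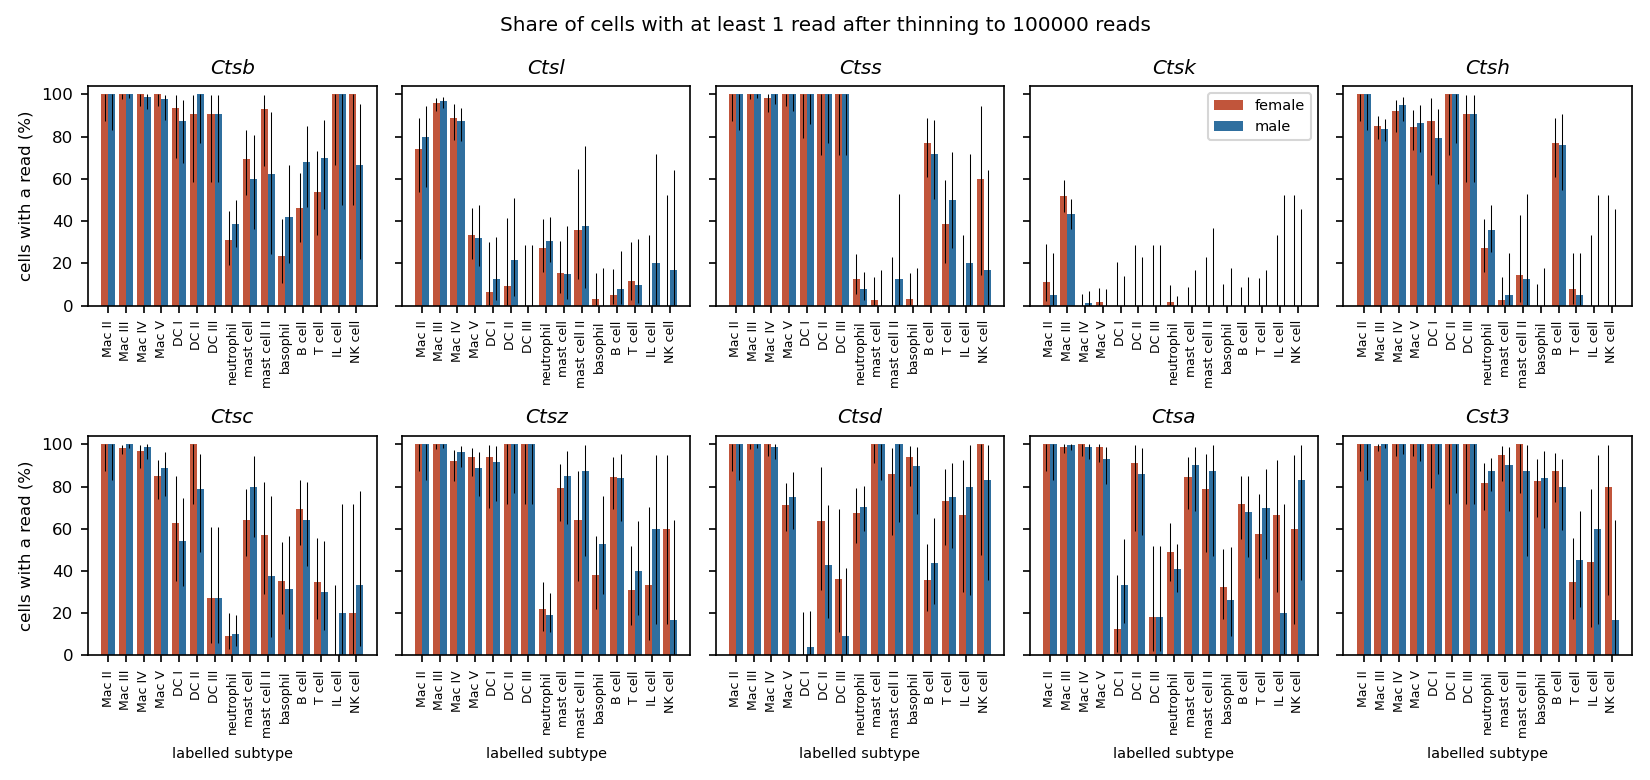
Share of cells (%) with at least 1 read after each cell was thinned to 100000 reads, by labelled subtype, bars by animal with exact 95% limits, 1 panel per gene. Ctsk is found in 51.9% and 43.3% of Mac III cells, and Ctsd in 0 of 16 female and 1 of 24 male DC I cells.

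Of the genes for exopeptidases, Ctsh encodes cathepsin H, an aminopeptidase. It was 1140 and 1166 CPM in Mac IV, 1139 and 1096 in Mac II, 778 and 1338 in DC III and 765 and 1285 in DC II. These 4 were close to each other: DC III and DC II overlapped each other and both macrophage subtypes. Mac III, with 234.1 and 187.02 CPM, was below all other macrophage, monocyte and dendritic subtypes and below B cells (319.4 and 326.8). Ctsh was still found in 85.1% and 83.7% of thinned Mac III cells, so its lower level there was not that of a few cells. Basophil, IL and NK cells held 0 reads of Ctsh in both animals.

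Ctsc encodes cathepsin C, a dipeptidyl peptidase. It was 2736 and 1227 CPM in Mac IV, 1320 and 1038 in Mac II, 1096 and 518 in Mac V, 835 and 571 in Mac III and 904 and 291.4 in DC II. The animals differed enough that only 2 of the 14 pairs of neighbours in its order were apart. Mast cells, which store the serine proteases it activates, had 249.4 and 236.3 CPM, and neutrophils 98.6 and 50.4. In lymphocytes it went from 340.6 and 123.2 CPM in B cells to 0.207 and 22.6 in IL cells. The female was higher in 13 of 15 subtypes. Of 3939 genes with a mean of at least 50 CPM over the subtypes, Ctsc included, 6.8% were higher in the female in 13 or more. All female plates stood above all male plates in 8 subtypes, Mac II to Mac V among them. In the other 7 the plates overlapped, and no share over all genes is given for this count.

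Ctsz encodes cathepsin Z, also called cathepsin X, a carboxypeptidase. It was the most even of the 10 genes across the series: its highest mean, in Mac IV, was 19 times its lowest. It was 2254 and 1678 CPM in Mac IV, 2108 and 1371 in DC III, 1728 and 1630 in Mac III, 1017 and 1421 in Mac II and 1295 and 1099 in DC II. Mac IV overlapped DC III and DC III overlapped Mac III, Mac III stood above Mac II, and over all 15 subtypes 4 of 14 neighbouring pairs were apart. B cells had 673 and 461 CPM and IL cells 58.5 and 149.01.

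Ctsd encodes cathepsin D, an aspartic endopeptidase. It was 5279 and 5891 CPM in Mac III, 2460 and 2992 in Mac II and 1370 and 1394 in Mac IV, and none of these overlapped. Mac III was 2.05 times Mac II. Every Mac III cell held it, with medians of 4869 and 5480 CPM. Mast cells (1535 and 1003 CPM) and basophils (977 and 848) stood above Mac V (240.2 and 304.96) and neutrophils (405 and 400). The dendritic subtypes were low: DC I held 4 reads in the female and 98 in the male, or 0.155 and 2.9 CPM. After thinning, 0 of 16 female DC I cells, which allows up to 18.8% of cells by the floor of 3 counts and 20.6% by the exact 95% limit, and 1 of 24 male DC I cells had a read of Ctsd. DC II had 48.2 and 65.2 CPM and DC III 63.7 and 1.73. Of the male DC I reads 99% were in 1 cell.

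Ctsa encodes cathepsin A, a serine carboxypeptidase that also protects other lysosomal enzymes. It was 1950 and 1496 CPM in Mac IV, above Mac II (1080 and 915), Mac V (914 and 629) and Mac III (698 and 742). Mac IV was apart from the others, and Mac V and Mac III overlapped. DC I and DC III were low, with 86.6 and 32.7 CPM and 72.1 and 37.5 CPM. DC II, at 475 and 405 CPM, was not. Among lymphocytes it was 387.5 and 304.1 CPM in NK cells, 238.3 and 447 in T cells and 217.9 and 2.78 in IL cells, where the animals were far apart.

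**Figure D3:**
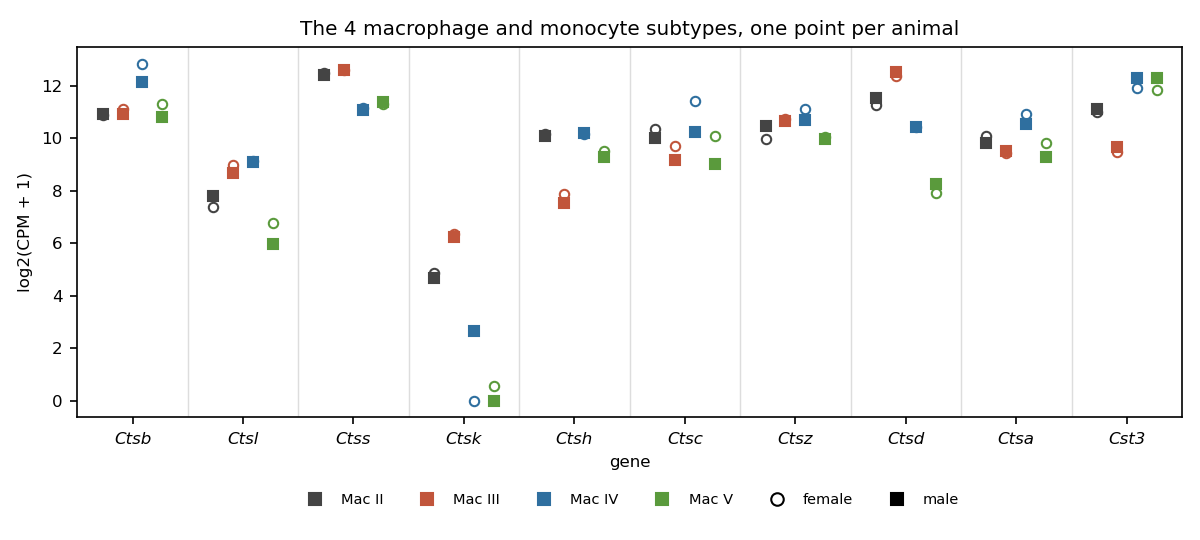
The 10 genes in Mac II, Mac III, Mac IV and Mac V as log2(CPM + 1), 1 point per animal (open circles female, filled squares male). Mac III is highest for Ctss, Ctsk and Ctsd and lowest for Ctsh and Cst3, while Mac IV is highest for Ctsb, Ctsh, Ctsl, Ctsz, Ctsc and Ctsa.

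Cst3 had another order from the proteases. It was 32897 and 49298 CPM in DC I, 13764 and 22297 in DC III, 6307 and 12405 in DC II, 3842 and 5009 in Mac IV and 3720 and 5014 in Mac V. The first 3 did not overlap, and DC I was 2.28 times DC III in the mean. Every DC I cell held at least 6339 CPM, and the medians were 29809 and 50256. At the other end of the phagocytes, Mac III had 713 and 811 CPM, below neutrophils at 1025 and 1446. Lymphocytes had 667 and 1088 CPM in B cells, 167.6 and 235.1 in T cells and 229.97 and 82 in NK cells. Nearly every thinned Mac III cell had a read of Cst3 (99.4% and 100%), so the gene was low there but present. Cells with at least 1000 CPM of markers from outside the immune lineage were left out in a repeat chosen after the data had been seen. Male DC I, where leaving out 2 such cells lowered the summed outside markers, mostly the epithelial gene Sftpc, from 10801 to 58.7 CPM, then had 50755 CPM of Cst3. In that repeat the subtype with the highest mean was the same for each of the 10 genes, and among mean levels of at least 50 CPM Ctsb in basophils moved most, by 1.52 times. Among single libraries of at least 50 CPM it was Ctsl in male mast cell II, from 67 to 20.5 CPM.

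To compare the genes with each other, CPM were divided by the exon length of each gene's coding transcripts in kilobases. Per length Ctss led the 10 genes in Mac III (4602 CPM per kilobase, with Ctsd next at 2626) and in Mac II (4131), and Ctsd led in NK cells (345.7). Cst3 led in the other 12 subtypes, with 47788 CPM per kilobase in DC I and 5146 in Mac IV. The short Cst3 transcript raises it on this scale. The ratio of Cst3 to the sum of the 9 cathepsins per length was 21.6 and 49.3 in DC I, 4.79 and 9.9 in DC III and 2.04 and 4.95 in DC II. It was 1.04 and 1.51 in Mac V, 0.613 and 0.999 in Mac IV, 0.305 and 0.324 in Mac II and 0.0881 and 0.1 in Mac III. In each animal these 7 subtypes had the same order of the ratio, from DC I down to Mac III. With the shortest coding transcript in place of the exon union, a choice added after the data had been seen, the leading gene was the same in 14 of 15 subtypes. The exception was the mast cell, where Cst3 (620) and Ctsd (597) were close.

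**Figure D4:**
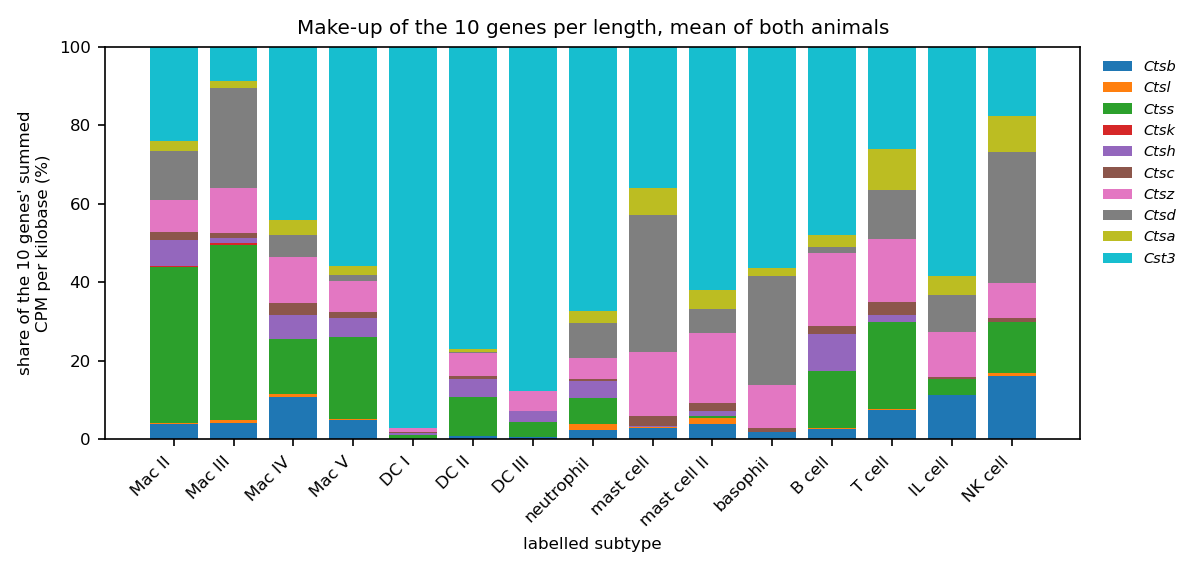
Make-up of the 10 genes per length: the share (%) of each gene in the summed CPM per kilobase, mean of both animals, stacked by labelled subtype. Cst3 fills most of the DC I bar, and Ctss and Ctsd most of the Mac III bar.

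The first comparison set the 7 mononuclear phagocyte subtypes (Mac II to Mac V, DC I to DC III) against the 4 lymphocyte subtypes (B, T, IL, NK). Of the 10 genes 6 were called, all higher in phagocytes, where 16.3% of 15600 genes were called (edgeR quasi-likelihood test on reads summed per animal and subtype, Benjamini-Hochberg adjusted p under 0.05). Cst3 averaged 9040 and 13867 CPM against 310.7 and 461.8, a log2 fold change of 4.56 ± 0.28 (SE, adjusted p = 9.56e-10). Ctss averaged 3077 and 2779 CPM against 242.1 and 213.6 (4.09 ± 0.90, adjusted p = 0.00308). Its lowest phagocyte library had 564 CPM and its highest lymphocyte library 454. For each of the other called genes the phagocyte and lymphocyte libraries overlapped. Cst3 had 713 CPM in female Mac III and 1088 in male B cells. Ctsh had 187.02 CPM in male Mac III and 326.85 in male B cells. Ctsc (3.34 ± 0.58, adjusted p = 0.000389), Ctsz (3.01 ± 0.31, 1.56e-06) and Ctsb (2.11 ± 0.31, 7e-05) were also higher. Ctsh was called as well (adjusted p = 5.15e-08), but IL and NK cells held 0 reads, so no fold is given. Its levels were 761 and 870 CPM against 88.8 and 87.2.

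The 2 genes that missed the threshold with a usable estimate were Ctsa (1.02 ± 0.43, adjusted p = 0.115) and Ctsd (0.34 ± 0.43, 0.832). Ctsd averaged 1351 and 1522 CPM in phagocytes against 324.2 and 260.5, but its phagocyte libraries ran from 0.155 to 5891 CPM, and the fit, which averages logs, weighs DC I as much as Mac III. The Ctsd estimate turned to -0.13 without the male DC I library and to -0.21 without the female DC III library. Ctsa passed (2.34, adjusted p = 2.78e-05) when the female IL library was left out. For Ctsk and Ctsl no fold could be estimated, because whole subtypes were at or near 0 reads. The median log2 fold change of the 7 genes with an estimate was 3.01 and that of all genes 0.48. The 6 calls held in each of 6 alternative analyses and with each of 22 libraries left out.

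Mac III, the alveolar type, was then set against Mac IV, the C1q-positive type, and both are macrophages. Of the 10 genes 1 was called, Cst3, where 0.263% of all genes were called (edgeR). It was lower in Mac III, 713 and 811 CPM against 3842 and 5009, a log2 fold change of -2.50 ± 0.53 (adjusted p = 0.0489). That call was lost with each of the 4 libraries left out (adjusted p = 0.106 to 0.705), with cells scaled to equal totals (0.156) and in the shared sequencing run alone (0.0676). The fold hardly moved, from -2.28 to -2.72. Ctsd was 3.85 and 4.23 times higher in Mac III (2.06 ± 0.99, adjusted p = 0.631) and Ctss 2.74 and 2.85 times (1.53 ± 1.69, adjusted p = 1). Ctsh was 4.87 and 6.23 times higher in Mac IV (-2.41 ± 0.90, adjusted p = 0.495), and Ctsb had a log2 fold change of -1.45 ± 0.64 (adjusted p = 0.588). These values did not pass in a design of 2 libraries a side, and the standard errors, from a spread shared over 15 subtypes, span several-fold differences.

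Mac IV and Mac V, the monocyte-like type, were compared next. Of the 10 genes 0 were called by edgeR, where 0.167% of all genes were called. At an unadjusted p under 0.05 there were 2 of the 10, beside 10.6% of all genes, and DESeq2 called 0 of them, beside 5.88%. Ctsd was 5.7 and 4.57 times higher in Mac IV (2.25 ± 1.00, adjusted p = 0.442) and Ctsb had 1.34 ± 0.64 (adjusted p = 0.469). Ctsl was 5.18 and 8.88 times higher (2.61 ± 1.62, adjusted p = 0.617). Cst3 was alike in size, 3842 and 5009 CPM against 3720 and 5014, with an estimate of -0.07 ± 0.50.

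Among dendritic cells DC III, which had the highest Ccr7, Fscn1, Cacnb3 and Ccl22, was set against DC I and DC II. Of the 10 genes 1 was called, Ctsl, where 7.22% of all genes were called (edgeR). It had 0 reads in DC III and 27.2 and 37.1 CPM in DC I and DC II (adjusted p = 0.0159). Against a floor of 3 reads per library that is at least 91.1-fold higher in the female and at least 193.7-fold in the male. Those reads came from few cells: after thinning 1 of 16 and 3 of 24 DC I cells and 1 of 11 and 3 of 14 DC II cells had one. The call was lost in the shared run (adjusted p = 0.0878). It was also lost without the female (adjusted p = 0.108) and without the male DC III library (0.102). Ctsd was 63.7 and 1.73 CPM in DC III against 24.2 and 34.1, opposite in sign between the animals (1.92 ± 0.80, adjusted p = 0.15). Cst3 averaged 13764 and 22297 CPM against 19602 and 30852, lower in DC III. Its log2 estimate was 0.21 ± 0.43, from a fit that averages logs and scales libraries by TMM, which the CPM lack. The estimate was smaller than its SE, and what set its sign was not tested.

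Mast cells and basophils both carry granules. Of the 10 genes 1 was called, Ctsh, higher in mast cells, where 1.71% of all genes were called (edgeR, adjusted p = 0.00221). It had 491 and 13 reads in mast cells and 0 in basophils. Against a floor of 3 reads per library that is at least 130.8-fold higher in the female and at least 3.09-fold in the male. Of the female mast cell reads 99.8% were in 1 cell, and the male reads were all in 1 cell. In the shared run the adjusted p was 0.269. Ctsd had 1535 and 1003 CPM against 977 and 848 (0.28 ± 0.96, adjusted p = 0.992), and Ctsc 249.4 and 236.3 against 127.7 and 36.2 (1.40 ± 1.13, adjusted p = 0.627).

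Neutrophils, short-lived phagocytes, were set against Mac V. Of the 10 genes 0 were called by edgeR, where 0.404% of all genes were called. There were 4 of the 10 at an unadjusted p under 0.05, beside 13% of all genes, and DESeq2 called 2, Ctsb and Ctsz, beside 9.08%. Ctsb was 272.9 and 233.8 CPM in neutrophils against 2557 and 1806 (-2.68 ± 0.67, adjusted p = 0.0963). With cells scaled to equal totals it passed, at -2.90. Ctss was 327.9 and 58.3 CPM against 2511 and 2670 (-3.26 ± 1.80, adjusted p = 0.457). Ctsd had the opposite sign, 405 and 400 CPM against 240.2 and 304.96 (0.98 ± 0.96, adjusted p = 0.764). So did Ctsl, 149.9 and 196.96 CPM against 108.35 and 62.2 (1.42 ± 1.55, adjusted p = 0.796).

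Genes that work with the 10 were counted from lists by the same edgeR fit. In phagocytes against lymphocytes 17 of 31 other lysosomal hydrolases and cofactors were higher and 0 lower, where 10.1% of all genes were higher and 6.25% lower. Psap, the precursor of the saposins, averaged 2067 against 250.5 CPM (3.34 ± 0.40, adjusted p = 8.71e-06), and Grn, the progranulin gene, 859 against 103.95 (3.79 ± 0.67, 0.000484). The list's median log2 fold change was 2.54 where that of all genes was 0.48. The medians of the other lists were 1.80 for lysosome makers and membrane, 6.52 for class II, -0.52 for other cathepsins, 0.165 for cystatins and 0.515 for serine proteases. Of 21 genes for lysosome makers and membrane proteins 13 were higher and 0 lower, among them the tetraspanin Cd63 (396 against 6.72 CPM) and the sorting receptor Sort1 (150 against 6.56). Of 10 class II presentation genes 8 were higher, H2-Aa and H2-Eb1 among them. Both were highest in DC I (means of 16087 and 8668 CPM) and had 0 reads in T, IL and NK cells. B cells were not low: H2-Aa had a mean of 2228.5 CPM there, but 0.142 in Mac III and 6.28 in Mac V. For H2-Eb1 these means were 1371, 0.185 and 4.25 CPM. Of 7 other cathepsin and legumain genes 1 was higher, Lgmn (666 against 93.8 CPM, 2.92 ± 0.63, adjusted p = 0.00281), and 2 were lower. Ctsw, a cathepsin known from cytotoxic lymphocytes, averaged 1.16 CPM against 609. Of 10 other cystatins and binding partners 2 were higher, Cd74, the invariant chain, and Cstb, cystatin B (566 against 174.3 CPM), and 1 was lower, Cst7, cystatin F (2.26 against 107.2 CPM). Cd74 too had a higher mean in B cells (4503 CPM) than in Mac III (2.48) and Mac V (119.7). Of 8 genes for granule serine proteases, tryptases included, 0 passed in either direction.

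In the other comparisons few of these genes passed. DC III had more Cstb than DC I and DC II (773 against 197.2 CPM, adjusted p = 0.0107) and more Cd63 (1218 against 10.7) and Lamp1 (1483 against 254.7). Of 31 hydrolases and cofactors 1 was higher in DC III, Npc2, and 6 were lower, where 2.79% of all genes were higher and 4.43% lower. Naaa and Lyz2, with 2634 and 1839 CPM in DC I and DC II, had 0 reads in DC III. Reads of near-identical copies may be shared in the families of BC100530 and Tpsb2, named next. In mast cells against basophils 4 of 8 serine proteases were higher, among them the tryptase gene Tpsb2 (82846 CPM against 0 reads), where 0.987% of all genes were higher, beside Mitf and Scarb2 of the lysosome makers and Ids of the hydrolases. In neutrophils against Mac V BC100530, of the stefin A family, was higher (8823 against 0.894 CPM) and Npc2 was lower (83 against 968 CPM), where 0.115% of all genes were higher and 0.288% lower. In Mac III against Mac IV 1 other cathepsin gene was lower and 1 serine protease gene higher, where 0.0513% of all genes were higher and 0.212% lower. Both genes were below the CPM set for naming a gene. In Mac IV against Mac V no listed gene passed.

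The animals differed in Cst3 more regularly than in the other 9 genes. The male was higher in 14 of 15 subtypes, as 2.59% of the same 3939 genes were in 14 or 15. Both male plates stood above both female plates in 6 subtypes, DC II among them, with 7902 and 5360 CPM on the female and 10911 and 12924 on the male plates. In 8 subtypes the plates overlapped, and in 1, the NK cell, both female plates stood above. No share over all genes is given for these counts. Female plate 1, the run DC28, was the lowest of the 4 plates in 12 of 15 subtypes, as often as in 2.34% of the genes. DC I gave 19644 and 57169 CPM on female plates 1 and 2 and 40747 and 54582 on the male plates. Neutrophils gave 416 and 1561 on the female and 1477 and 1435 on the male plates. On plate 2, where both animals were in run DC35, the female was higher in 8 of 15 subtypes. The part of the plate or run in these values was not tested. For Ctsc that plate was the highest in 9 of 15 subtypes, as often as in 11.4% of genes, and on plate 2 the female was higher in 10. Mac IV had 3641 and 1902 CPM of Ctsc on the female and 1283 and 1187 on the male plates.

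**Figure D5:**
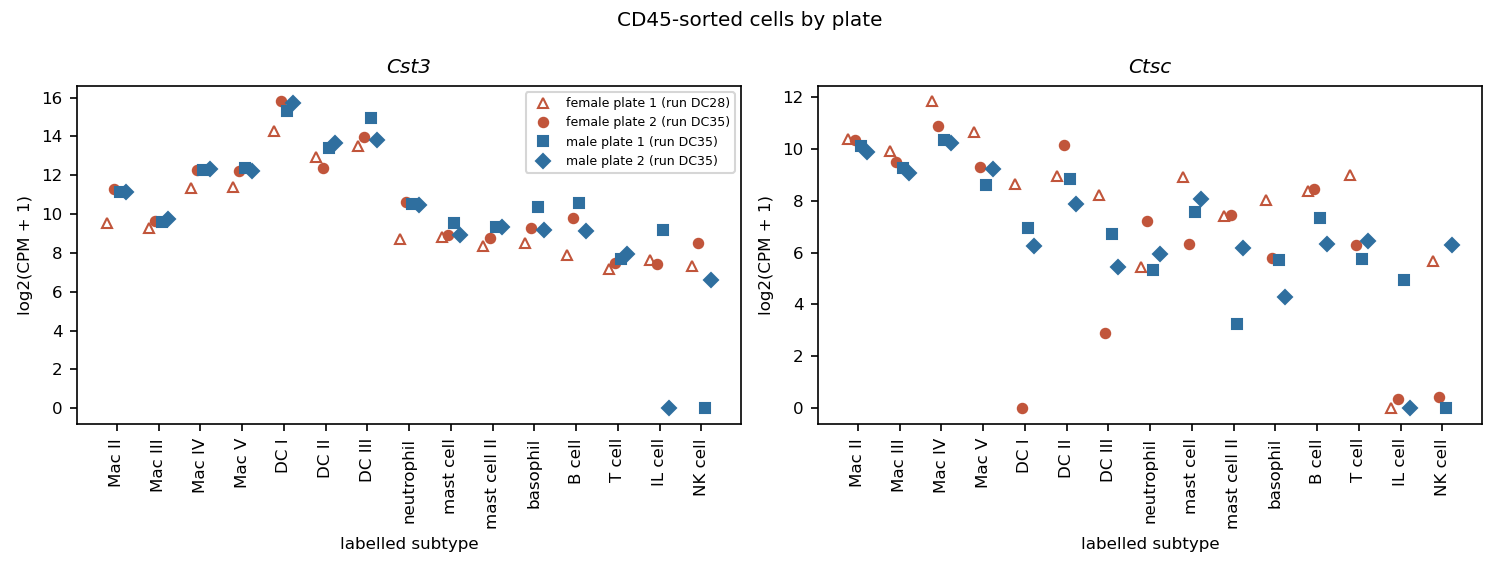
Cst3 and Ctsc as log2(CPM + 1) by labelled subtype, 1 point per CD45-sorted plate (2 plates per animal). Female plate 1 is the lowest point for Cst3 in 12 of 15 subtypes and the highest for Ctsc in 9.

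From cell to cell within a subtype some of the genes went together. These are Spearman correlations of CPM over cells, and the cells share an animal and a library total, so they are given as a description. In Mac III Ctsb and Ctsd had 0.436 in the female and 0.475 in the male cells, Ctss and Ctsd 0.477 and 0.378, and Ctsb and Ctss 0.394 and 0.457. In Mac IV Ctsb and Ctsd had 0.706 in 63 and 0.558 in 79 cells, and Ctsh and Ctss 0.624 and 0.516. In both animals, cells with more of 1 gene of these pairs had more of the other. Other pairs did not: Ctsb and Ctsc in Mac III had -0.096 and -0.125, and Ctsb and Ctsh in Mac V -0.206 and -0.21. In Mac III the values of Ctsk with the other 9 genes lay between -0.106 and 0.105, and those of Ctsc between -0.125 and 0.134. At full depth 59.3% and 57.2% of Mac III cells had a read of Ctsk, so many cells were tied at 0 for it. Cst3 and Ctsh had 0.504 and 0.492 in Mac IV, 0.13 and 0.06 in Mac III and -0.186 and -0.37 in Mac V, so the sign of this pair differed between subtypes.

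Between the 15 subtypes the members' profiles were compared by Pearson correlation of log2(CPM + 1), again as a description. Ctsz and Ctsc were the most alike pair (0.834), followed by Ctsh and Ctsz (0.833), and Ctsd and Cst3 the least alike (-0.547). Among 8127 other genes, the profile most like that of Ctsb was Abhd12 (0.927), of Ctss Bcl2a1b (0.928), of Ctsl Sdcbp (0.882) and of Ctsk Cidec (0.969). For Ctsh it was Fcgrt (0.939), for Ctsc Cd68 (0.908), for Ctsz Cltc (0.913), for Ctsd Pld3 (0.858), for Ctsa Itgb5 (0.84) and for Cst3 Batf3 (0.938). By rank correlation at least 2 of the 3 most alike genes were the same for 4 of the 10, and for the other 6 the neighbours depended on the measure. Ctsk was among these 6: its rank correlation with Cidec was 0.338, and both genes were near 0 outside Mac III and Mac II.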

How the data were processed

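Per the submitters' processing notes, reads were mapped with STAR 2.5.2b and counted with HTSeq 0.10. The notes name build GRCh38, a human build, although the samples are mouse, so no coordinate was taken from the deposited table. The authors deposited raw read counts per gene and cell, without molecular identifiers, so intervals and floors cover counting error only. Strand handling is not given in the sources used here, and overlapping or near-identical genes may share reads.

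Counts were summed per animal and labelled subtype (30 libraries, a minimum of 5 cells per animal for each of 15 subtypes). The animal, female as replicate 1 and male as replicate 2, was the replicate. The 2 CD45 plates of each and the 10 cells not titled CD45 were pooled by animal. edgeR 4.0.16 in R 4.3.3 (TMM scaling, its filter on low counts, quasi-likelihood test) was fitted once to all subtypes and 15600 genes for 6 comparisons, with Benjamini-Hochberg adjustment over all genes. P-values rest on 1 animal per sex. The SE printed with a log2 fold change was derived from the test, as its absolute value divided by the square root of the F statistic. Same-numbered libraries come from 1 animal by label; over 105 pairs of subtypes their deviations had a median correlation of 0.054 (-0.041 to 0.225). CPM are of summed reads without TMM. Detection used cells thinned to 100000 reads, without 5 shallower cells, and exact (Clopper-Pearson) limits. No doublet caller was run. Lengths are from GENCODE vM21, promoters from RefSeq GRCm38.p6. Within each list the genes named were at most 2 per direction among those called with at least 50 CPM on a side; the 3 most alike genes were named by Pearson correlation, of which the first is printed. Members and lists were chosen with earlier results of these data known. The fit and calls were tested on counts simulated for the summed libraries, and the summing of cells was not. Alternatives were RLE scaling, DESeq2 1.42.0, no filter, an animal block, equal cell totals, the shared run alone and each library left out.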

Additional observations from a re-analysis of the deposited data

Results flagged for a closer look

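The single Mac I cell, from the male, entered no comparison and held reads of 9 of the 10 genes. It had 6397 CPM of Cst3, 1867 of Ctss, 1690.5 of Ctsh, 1475 of Ctsc, 1319 of Ctsb and 1300 of Ctsz. Its other levels were 750.4 CPM of Ctsa, 153.7 of Ctsl and 140.2 of Ctsd. They are listed because the cell lies outside the samples compared and each level was above the 1.23 CPM that a count of 0 allows in its 2440163 reads. Ctsk had 0 reads there. It is 1 cell, with no replicate.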

How the results depend on the processing

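The number of animals and the spread set the limits: called genes fell in most comparisons when a library was left out and rose with DESeq2. As percent of the number of genes called, in the order of the comparisons above, DESeq2 called 213.9, 1209.8, 3526.9, 347.4, 953.6 and 2249.2. The shared run alone called 73.2, 21.95, 26.9, 53.6, 36.3 and 19.05. With 1 library left out the ranges were 68.5 to 98.8, 2.44 to 41.5, 0 to 26.9, 50.1 to 68.3, 36.7 to 64.8 and 3.17 to 173.02. A library left alone in its subtype was taken to vary like the others. Of the 10 genes, Mac III against Mac IV called 0 with equal totals, 0 in the shared run and 0 to 0 with a library left out. DC III called 2 with DESeq2, 0 in the shared run and 0 to 2 with a library left out. Mast cells called 3 with DESeq2 and 0 in the shared run, and neutrophils 2 with DESeq2 and 1 with equal totals. The animal as a replicate block called 103.02, 104.9, 130.8, 98.3, 99.6 and 120.6 percent and changed no call among the 10.

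Estimates that changed sign did not pass with or without the change. They were Ctsd in phagocytes (-0.13 without the male DC I, -0.21 without the female DC III library, up to 0.68 without the female IL library), and Ctsz in Mac III against Mac IV (0.025, equal totals). Cst3 in Mac IV against Mac V became 0.15 with RLE scaling and 0.15 with DESeq2, 0.018 without the filter, 0.01 in the shared run, and 0.20 without the female Mac IV and 0.20 without the male Mac V library, down to -0.24 without the male Mac IV library. Ctsk there became -6.52 without the male Mac IV library and 9.97 without the female Mac V library. In DC III Cst3 became -0.026 in the shared run and -0.35 without the male DC III library (0.68 without the female one), and Ctsd -1.96 without the female one (3.64, called, without the male DC I library). Ctsz in mast cells became -0.023 without the female and 1.54 without the male basophil library. Among genes with a fold, 5 estimates gained a call under a changed setting and 2 lost one, and with a library left out 3 gained and 4 lost one. Of those without a fold, Ctsl in DC III was called in 5 of 6 settings and with 4 of 6 libraries left out, and Ctsh in mast cells in 5 of 6 settings and with 4 of 4. Of the highest level of each gene, 7 values under a changed setting moved by more than the SD of the animals, Cst3 in DC I most, from a mean of 41097 to 53233 CPM in the shared run. The cause of these changes was not tested.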
